A study of Mus musculus with 2 samples.

Results

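Smooth muscle cells of mouse back skin were examined in 2 sections measured with Xenium In Situ, an imaging assay that decodes single transcripts of a fixed gene panel in tissue and assigns them to segmented cell outlines. A cell was counted as a smooth muscle cell when Myh11, Cnn1 and Tagln together made up at least 10% of its transcripts, with at least 3 transcripts of Cnn1 and Myh11. Cells with 8% or more of 4 epithelial genes or 20% or more of 4 skeletal muscle genes were left out. The rule found 482 of 44282 cells with at least 20 transcripts in the SspA+HDM section and 361 of 15306 in the mock section, 843 of 59588 in all. The 2 groups were C57BL/6 mice whose shaved and depilated back skin received SspA and HDM, or PBS (mock), through the skin surface. Skin of both was taken 7 days after treatment. Each treatment had 1 sample, a 5-µm section of formalin-fixed, paraffin-embedded tissue, so no difference between the sections had a replicate check and none was tested. Intervals below are exact 95% intervals for counting error only.

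Smooth muscle cells shorten when myosin, switched on by phosphorylation of its regulatory light chain, pulls on actin filaments. In skin they form the walls of arteries and veins, and the arrector pili, small muscles that run from a hair follicle to the upper dermis and raise the hair. Pericytes are related contractile cells that wrap capillaries and small venules, and they share part of the smooth muscle gene set. The 3 genes of the rule do not separate muscle of vessels from muscle of hair follicles.

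Each section held 2 separate strips of skin, called strip 1 and strip 2, which are parts of a section and not replicates. The sections held 8124205 gene transcripts for SspA+HDM and 2461475 for mock over 379 genes, and no cell name occurred in both. Smooth muscle cells held 41375 transcripts in SspA+HDM skin and 30239 in mock skin. Their median was 70 transcripts per cell in SspA+HDM skin and 76 in mock skin, against 127 and 108 over all cells of those sections. The numbers of cells and of these transcripts limit the precision of every level below.

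The rule's 3 genes, which chose the cells and are given as description, took a median of 16.4% of a smooth muscle cell's transcripts in SspA+HDM skin and 17.2% in mock skin. The highest shares were 40.5% and 47.6%. Myh11, the smooth muscle myosin heavy chain, was found in 100% of the cells of both sections. Cnn1 transcripts were concentrated in these cells: the cells held 57.1% of all Cnn1 transcripts inside outlines of the SspA+HDM section and 59.0% in the mock section. For Tagln, an actin-binding protein, the shares were 25.3% in SspA+HDM skin and 45.1% in mock skin. Between 10% and 12% of rule genes, just inside the threshold, lay 103 cells of SspA+HDM skin and 60 of mock skin. Just outside, between 8% and 10%, lay 120 cells of SspA+HDM skin and 65 of mock skin. Rgs5, a regulator of G protein signalling that marks pericytes, had 29620 CPM (the gene's transcripts per 1000000 panel transcripts in the cells named) in the cells just inside and 39084 just outside in SspA+HDM skin, against 12258 and 13848 in mock skin. It had 7720 in the cells with at least 20% of rule genes in SspA+HDM skin and 4406 in those of mock skin. The limit on epithelial and skeletal muscle genes left out 4 cells in SspA+HDM skin and 13 in mock skin.

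The genes most concentrated in these cells are shown by their promoters, 250 bases before to 50 after the gene's start, from RefSeq (GRCm38.p6). Shown are the 3 with an entry in that table whose level in the mock section was highest in smooth muscle cells over the other cells within 30 µm. Cnn1, calponin 1, an actin-binding protein that restrains myosin's ATPase, lies at chr9:22099003-22099302 on the + strand. Itga8, the integrin alpha 8 chain, known in mouse skin for anchoring the arrector pili to the follicle's nephronectin, lies at chr2:12301895-12302194 on the - strand. Myl9, a regulatory light chain of smooth muscle myosin, lies at chr2:156775214-156775513 on the + strand. Capitals mark a CArG box, the motif bound by serum response factor, searched on both strands.
Cnn1: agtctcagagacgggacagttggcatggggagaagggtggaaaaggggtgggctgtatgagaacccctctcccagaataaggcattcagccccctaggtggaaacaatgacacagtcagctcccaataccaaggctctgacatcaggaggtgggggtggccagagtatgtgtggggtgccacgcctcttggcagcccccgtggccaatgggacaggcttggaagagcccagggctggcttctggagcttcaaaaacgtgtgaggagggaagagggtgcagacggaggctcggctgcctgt
Itga8: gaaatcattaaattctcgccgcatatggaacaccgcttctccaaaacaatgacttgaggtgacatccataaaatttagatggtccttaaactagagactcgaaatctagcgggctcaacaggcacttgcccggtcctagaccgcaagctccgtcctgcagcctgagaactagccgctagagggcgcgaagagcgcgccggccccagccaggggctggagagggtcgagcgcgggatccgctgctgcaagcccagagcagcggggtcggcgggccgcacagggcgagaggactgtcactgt
Myl9: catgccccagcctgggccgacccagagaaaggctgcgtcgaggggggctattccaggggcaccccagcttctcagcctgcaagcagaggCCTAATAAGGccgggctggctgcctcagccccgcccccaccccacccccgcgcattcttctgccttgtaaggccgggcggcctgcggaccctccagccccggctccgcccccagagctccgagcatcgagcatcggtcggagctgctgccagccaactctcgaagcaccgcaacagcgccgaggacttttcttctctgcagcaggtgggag
The Myl9 window held 1 CArG box, CCTAATAAGG at chr2:156775303-156775312, which starts 161 bases before the gene's start. The other windows held 0. Of the 8 panel genes of the contractile list, 6 had an entry and 1 held a CArG box. Over all 32851 promoters in the table, 535 (1.63%) held one.

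Smooth muscle cells made up a smaller share of cells in SspA+HDM skin, while their number along the skin was slightly larger. They were 1.09% (0.994 to 1.19) of the cells in the SspA+HDM section and 2.36% (2.12 to 2.61) in the mock section, a ratio of 0.462 (0.402 to 0.530). By strip the share was 1.07% and 1.11% in SspA+HDM skin and 2.43% and 2.30% in mock skin, with no overlap. Leaving out the epithelial cells, the share was 2.001% in SspA+HDM skin and 4.13% in mock skin. Per mm of strip there were 31.4 cells (28.6 to 34.3) in SspA+HDM skin and 25.9 (23.3 to 28.7) in mock skin, a ratio of 1.21 (1.06 to 1.39). By strip there were 28.3 and 34.5 per mm in SspA+HDM skin and 25.1 and 26.6 in mock skin, a gap between the sections that is smaller than the gap between the SspA+HDM strips. Blood endothelial cells, defined by 8 panel markers at 10% or more of the transcripts, numbered 120.5 per mm in SspA+HDM skin and 28.1 in mock skin, a ratio of 4.29 (3.84 to 4.79). There were 0.260 smooth muscle cells per blood endothelial cell in SspA+HDM skin and 0.921 in mock skin.

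Smooth muscle cells followed all cells along the strips. Split at the middle of each strip, as imaged, the right side held 62.7% of the smooth muscle cells and 58.3% of all cells in SspA+HDM skin, against 52.1% and 49.6% in mock skin. Their median depth below the skin surface was 175.0 µm in SspA+HDM skin and 77.3 µm in mock skin. Relative to the thickness of the strip at that place this was 48.6% in SspA+HDM skin and 36.7% in mock skin. Their outlines had a median area of 105 µm² in SspA+HDM skin and 161 µm² in mock skin. Those of the other cells were 90.1 and 134 µm² in the same sections, so the outlines of all cells were smaller in the SspA+HDM section. The ratio of outline length to width was 1.59 in SspA+HDM skin and 1.60 in mock skin.

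**Figure D1:**
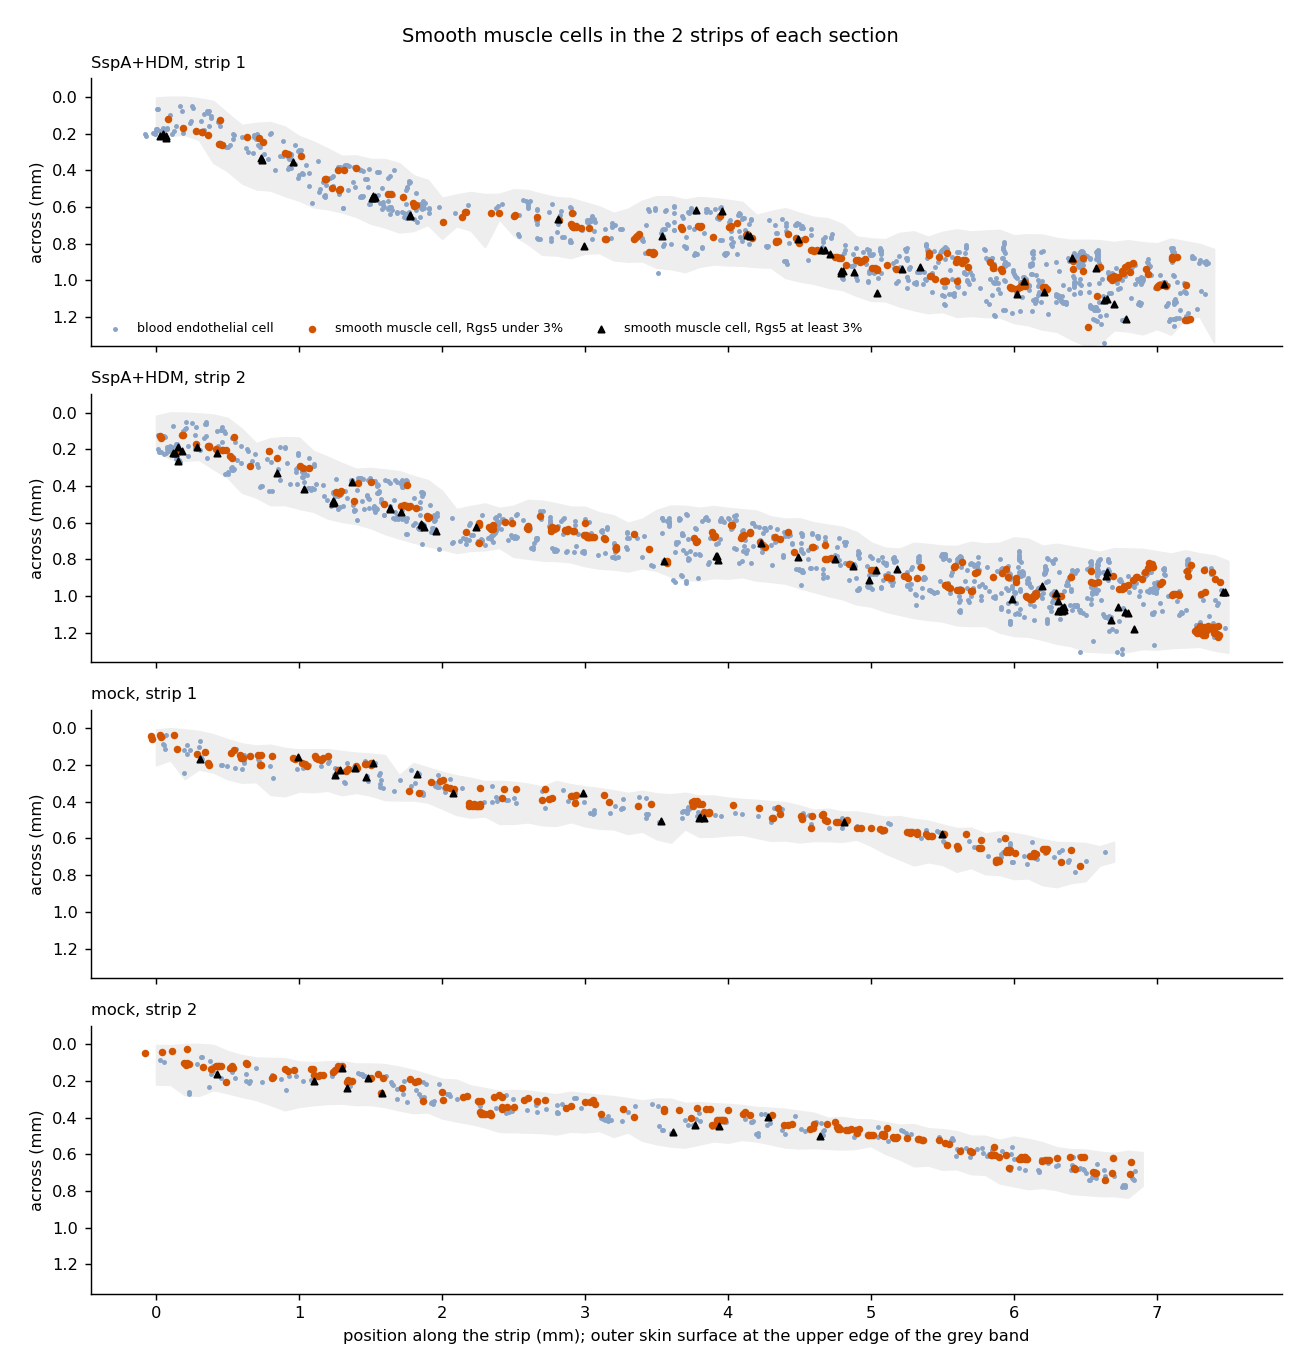
Position of each smooth muscle cell in the 2 strips of each section, with the outer skin surface at the upper edge of the grey tissue band; both axes are in mm. Orange points are smooth muscle cells with under 3% Rgs5 transcripts, black triangles those with at least 3% (93 cells in SspA+HDM skin, 27 in mock skin), and blue points are blood endothelial cells. The dense patch at the right end of SspA+HDM strip 2 is the group of 19 cells described in the text.

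Smooth muscle cells lay closer to blood endothelial cells in SspA+HDM skin and closer to epithelium in mock skin. The centre of a blood endothelial cell lay within 20 µm of 43.6% (39.1 to 48.1) of them in SspA+HDM skin and of 22.7% (18.5 to 27.4) in mock skin. The strips gave 39.2% and 47.2% in SspA+HDM skin and 23.6% and 21.9% in mock skin. Other cells that were neither endothelial nor epithelial had values of 29.0% in SspA+HDM skin and 17.7% in mock skin, and the part of the larger number of endothelial cells in the result was not tested. An epithelial cell lay within 20 µm of 46.3% (41.7 to 50.8) of the smooth muscle cells in SspA+HDM skin and of 60.1% (54.9 to 65.2) in mock skin. For the other cells the order was the opposite, with 43.6% in SspA+HDM skin and 34.4% in mock skin. Cells near epithelium and not near endothelium were 127 of 482 in SspA+HDM skin and 176 of 361 in mock skin. Cells near endothelium and not near epithelium were 114 in SspA+HDM skin and 41 in mock skin. A further 96 in SspA+HDM skin and 41 in mock skin were near both, and 145 in SspA+HDM skin and 103 in mock skin near neither. The mock strips were unlike each other near epithelium, with 50.6% and 69.0%, both above the 46.5% and 46.0% of the SspA+HDM strips.

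**Figure D2:**
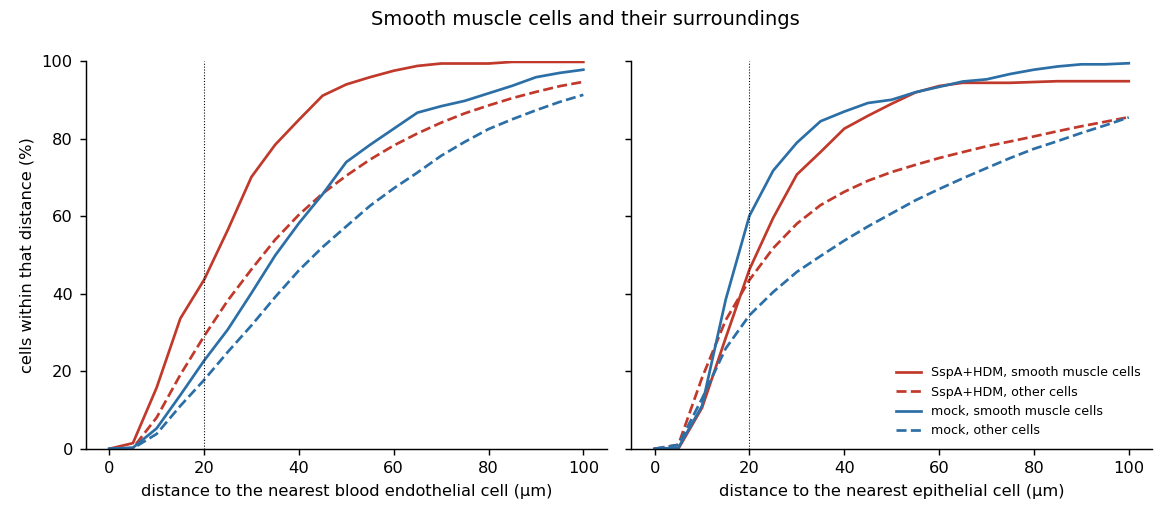
Share of smooth muscle cells (solid lines) and of other cells that are neither endothelial nor epithelial (dashed lines), in percent, whose nearest blood endothelial cell (left) or epithelial cell (right) lies within the distance in µm on the horizontal axis. At 20 µm (dotted line) the smooth muscle cells stand at 43.6% in SspA+HDM skin and 22.7% in mock skin on the left, and at 46.3% and 60.1% in the same order on the right.

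Many smooth muscle cells lay side by side. The nearest other smooth muscle cell was a median of 13.5 µm away in SspA+HDM skin and 15.7 µm in mock skin. Linked within 20 µm, they formed 279 groups in SspA+HDM skin and 221 in mock skin, of which 177 and 149 were single cells. The longest chain in mock skin had 13 cells in strip 1, spread over 78.4 by 17.96 µm at 69.1% of the depth, with 0 cells within 20 µm of an epithelial or endothelial cell. Another mock chain of 9 cells in strip 2 ran alongside epithelium, with 9 of 9 cells within 20 µm of it. Its Itga8 level was 46263 CPM, and 0 Rgs5 transcripts were found among its 562, a count that allows up to 3. A chain of 9 cells in SspA+HDM strip 2 also ran along epithelium, with 8 of 9 within 20 µm, an Itga8 level of 29748 and 1 Rgs5 transcript among 437.

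With a link of 40 µm, 1 group of SspA+HDM skin stood apart. It had 19 cells in strip 2, spread over 165 by 60.8 µm at 81.4% of the depth, and 15 of them lay within 20 µm of a blood endothelial cell, with none near epithelium. These cells held a median of 171 transcripts each, against 68 in the other smooth muscle cells of that section, and so 8.77% of the section's smooth muscle transcripts. Vwf, von Willebrand factor of endothelial cells, had 45467 CPM in the group and 4318 in the other cells: 165 of the section's 328 Vwf transcripts in smooth muscle cells came from it. Biglycan (Bgn) stood at 99752 in the group and 50178 outside it, and Itga8 at 5511 in the group and 14915 outside it. The 13-cell chain of mock strip 1 stood apart in another gene. Phospholamban (Pln), which restrains the calcium pump of the sarcoplasmic reticulum, had 23766 CPM there and 1407 in the other mock cells, 26 of 67 transcripts. Both groups were singled out after their values were seen. Values without them are given for some of the results that change, not for all.

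Most contractile genes lay within 2-fold between SspA+HDM and mock skin, as did most of all genes compared. Of the 8 on the panel, which include the rule's 3 genes, 0 were at least 2-fold higher and 1 was at least 2-fold lower. Over all genes compared, 13.9% were higher and 10.4% lower. Their median log2 ratio (SspA+HDM over mock) was -0.20, beside -0.07 over all 115 genes with at least 50 transcripts in the cells of at least 1 section, the rule's 3 genes included. Myh11 chose the cells, so its level is description only. It had 93682 and 88723 CPM in the strips of SspA+HDM skin and 90854 and 91547 in those of mock skin. Mylk, the kinase that phosphorylates the myosin light chain, had 81046 and 75523 in the strips of SspA+HDM skin and 77576 and 78626 in those of mock skin. For both genes the strips overlapped. Myl9 was slightly lower, with 57389 and 56301 in SspA+HDM skin and 63962 and 67783 in mock skin, a ratio of 0.861 (0.811 to 0.915).

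Tagln had 54574 CPM in SspA+HDM skin and 62105 in mock skin, and Cnn1 21100 and 26555 in the same order. These genes chose the cells, so their levels are description only. Desmin (Des), the intermediate filament of muscle, had 25884 and 24178 in the strips of SspA+HDM skin and 37137 and 39475 in those of mock skin, a ratio of 0.650 (0.597 to 0.708). The other cells within 30 µm of a smooth muscle cell had a Des level of 4722 CPM in SspA+HDM skin and 8115 in mock skin. Mustn1, a small protein of muscle and skeletal tissues, had 20012 in SspA+HDM skin and 16403 in mock skin, a ratio of 1.22 (1.09 to 1.37). Pln was the 1 contractile gene past 2-fold, with 1015 in SspA+HDM skin and 2216 in mock skin, a log2 ratio of -1.13. Without the 13-cell chain of mock strip 1 its log2 ratio was -0.47.

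**Figure D3:**
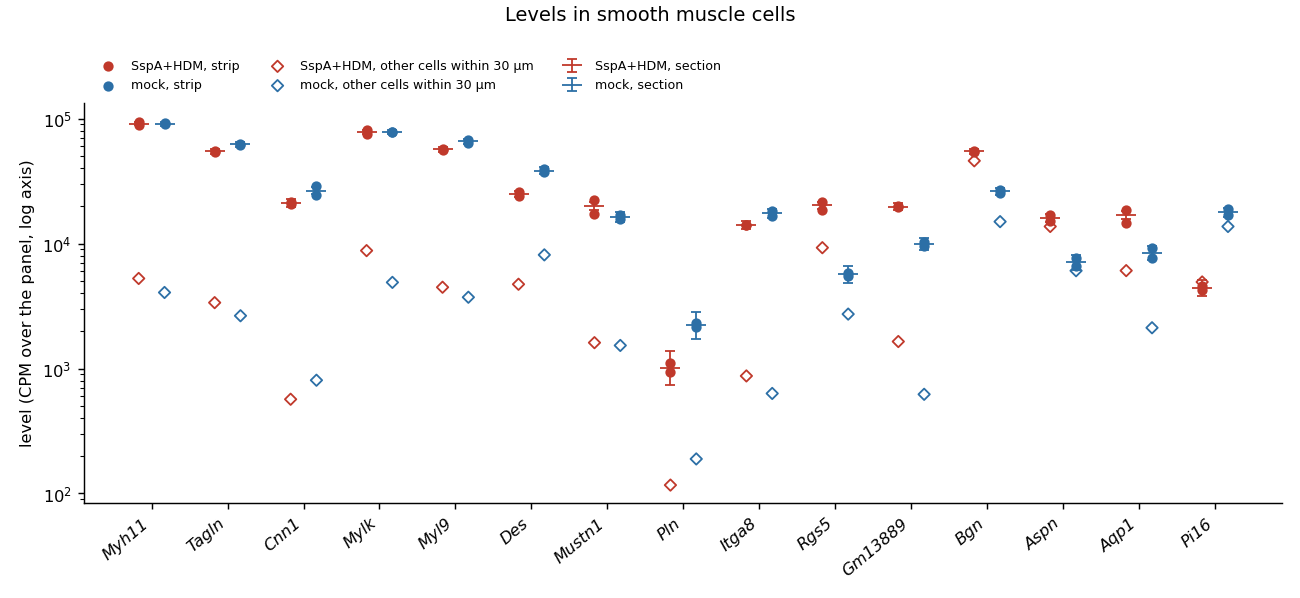
Levels in smooth muscle cells, in CPM over the panel on a log axis, for the contractile genes, Itga8 and genes named in the text, with SspA+HDM in red to the left of mock in blue. Points are the strips, the horizontal marks are the sections with 95% counting intervals, and open diamonds are the other cells within 30 µm; Myh11 stands at 90876 in SspA+HDM skin and 91207 in mock skin, Rgs5 at 20254 and 5655.

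An outline can hold transcripts of a neighbouring cell, so each gene was set beside its level in the other cells within 30 µm (5979 cells in SspA+HDM skin and 3698 in mock skin). At least 2-fold above that level in both sections were 14 of the 115 genes (12.2%). They were the 8 contractile genes, Itga8, Gm13889, Aqp1, Ppargc1a, Fxyd1 and Rgs5. Since the same cells were chosen by 3 of these genes, the list is a description. Itga8, one of the most restricted, stood at 16.2 times the level of the surrounding cells in SspA+HDM skin and 27.7 times in mock skin. It had 14083 and 14097 CPM in the strips of SspA+HDM skin and 16715 and 18244 in those of mock skin, a ratio of 0.805 (0.715 to 0.908). The smooth muscle cells held 23.9% of all Itga8 transcripts inside outlines in SspA+HDM skin and 49.8% in mock skin.

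Gm13889, a gene with no role given here, was high in smooth muscle cells relative to the cells around them in both sections, at 12.01 times the surrounding level in SspA+HDM skin and 16.0 times in mock skin. It had 19983 and 19564 CPM in the strips of SspA+HDM skin and 9571 and 10258 in those of mock skin. Its ratio of 1.99 (1.74 to 2.28) lay just under the 2-fold mark, and in the surrounding cells the ratio was 2.64. Aqp1, a water channel of endothelium and other cells, had 16943 in SspA+HDM skin and 8433 in mock skin, with 6070 and 2118 in the surrounding cells. Blood endothelial cells had an Aqp1 level of 46976 CPM in SspA+HDM skin and 25852 in mock skin. Ppargc1a, a coactivator of genes for mitochondria, had 55 transcripts in SspA+HDM skin and 26 in mock skin, or 1329 and 860 CPM. Fxyd1, a regulator of the sodium pump, had 4834 in SspA+HDM skin and 4960 in mock skin. Gm13889, Aqp1, Ppargc1a and Fxyd1 were chosen after their values were seen.

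Rgs5 separated the sections and the positions within them. It had 18592 and 21529 CPM in the strips of SspA+HDM skin and 5864 and 5454 in those of mock skin, a ratio of 3.58 (3.03 to 4.25). The surrounding cells had 9262 in SspA+HDM skin and 2725 in mock skin, a ratio of 3.40. After thinning each cell to 20 transcripts, Rgs5 was found in 21.4% of the smooth muscle cells of SspA+HDM skin and 8.03% of those of mock skin, and in 12.8% and 4.57% of the surrounding cells of those sections. Without thinning the shares of smooth muscle cells were 35.3% in SspA+HDM skin and 15.5% in mock skin. Of the other mural genes, Higd1b, a mitochondrial protein known from pericytes, had 20 transcripts in SspA+HDM skin and 2 in mock skin. Ndufa4l2, a mitochondrial protein induced at low oxygen, had 3335 CPM in SspA+HDM skin and 4531 in mock skin. Of the 4 mural genes on the panel, 3 had at least 50 transcripts in a section, and 1, Rgs5, was at least 2-fold higher, beside 13.9% over all genes compared.

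Within each section Rgs5 was higher in the smooth muscle cells near endothelium. In SspA+HDM skin it had 33404 CPM in the 210 cells within 20 µm of a blood endothelial cell and 9109 in the 272 cells farther away, a ratio of 3.67 (3.13 to 4.32). In mock skin it had 14134 in the 82 near cells and 2752 in the 279 far cells, a ratio of 5.14 (3.73 to 7.13). The near cells of the strips had 30932 and 34874 in SspA+HDM skin and 14481 and 13797 in mock skin. The far cells had 10565 and 7732 in the strips of SspA+HDM skin and 2899 and 2611 in those of mock skin, so the SspA+HDM section was higher in both positions and in every strip. Blood endothelial cells had 44348 in SspA+HDM skin and 22598 in mock skin, and the part of their transcripts in these levels was not tested. Weighting near and far cells equally gave a log2 ratio of SspA+HDM over mock of 1.33, against 1.84 over the cells as found.

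Few other genes followed position in both sections. Of 67 genes with at least 50 transcripts in the near or the far cells of each section, 2 (2.99%) were at least 1.5-fold higher near endothelium in both and 1 (1.49%) at least 1.5-fold higher away from it. Besides Rgs5 the gene higher near was Cd36, a fatty acid transporter of capillary endothelium, with near over far ratios of 1.92 in SspA+HDM skin and 3.01 in mock skin. Blood endothelial cells had a Cd36 level of 18187 CPM in SspA+HDM skin and 32397 in mock skin. The gene lower near was Anxa8, an annexin of epithelia, at 0.652 in SspA+HDM skin and 0.584 in mock skin. Itga8 was lower near endothelium in SspA+HDM skin, with 11117 near and 16611 far, against 17635 near and 17446 far in mock skin.

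Cells rich in Rgs5 had another make-up than the rest. At least 3% of the transcripts were Rgs5 in 93 smooth muscle cells of SspA+HDM skin (19.3%, 15.9 to 23.1) and in 27 of mock skin (7.48%, 4.99 to 10.7), a threshold set after the data were seen. Of the cells, 33 in SspA+HDM skin and 14 in mock skin lay within 1 percentage point of it, so it marks a range and not a type. Of the Rgs5-rich cells 76.3% in SspA+HDM skin and 66.7% in mock skin lay within 20 µm of a blood endothelial cell, against 35.7% and 19.2% of the other smooth muscle cells in the same order. Levels below leave Rgs5 out of the total. Cnn1 had 6881 CPM in the Rgs5-rich cells and 24815 in the others in SspA+HDM skin, and 12529 and 27801 in mock skin. Des had 13087 in the Rgs5-rich cells and 28196 in the others in SspA+HDM skin, and 24130 and 39659 in mock skin. Myh11 hardly differed, with 95656 in the Rgs5-rich cells and 92106 in the others in SspA+HDM skin, and 85383 and 92215 in mock skin. The rule sets a joint minimum for Cnn1 and Myh11, so a chosen cell low in Cnn1 must hold Myh11. The levels of these genes are description only.

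Aqp1 was lower in the Rgs5-rich cells too. It had 4722 in the Rgs5-rich cells and 20106 in the others in SspA+HDM skin, and 2784 and 8921 in mock skin. Timp3, an inhibitor of matrix metalloproteinases, ran the other way, with 32515 in the Rgs5-rich cells and 11623 in the others in SspA+HDM skin, and 34339 and 17698 in mock skin. Pln, at 2698 in the Rgs5-rich cells and 664 in the others in SspA+HDM skin, stood at 5104 and 2006 in mock skin, with 20 and 11 transcripts in the Rgs5-rich cells of the 2 sections. These genes were picked after their values were seen, and the same cells were used for the split.

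**Figure D4:**
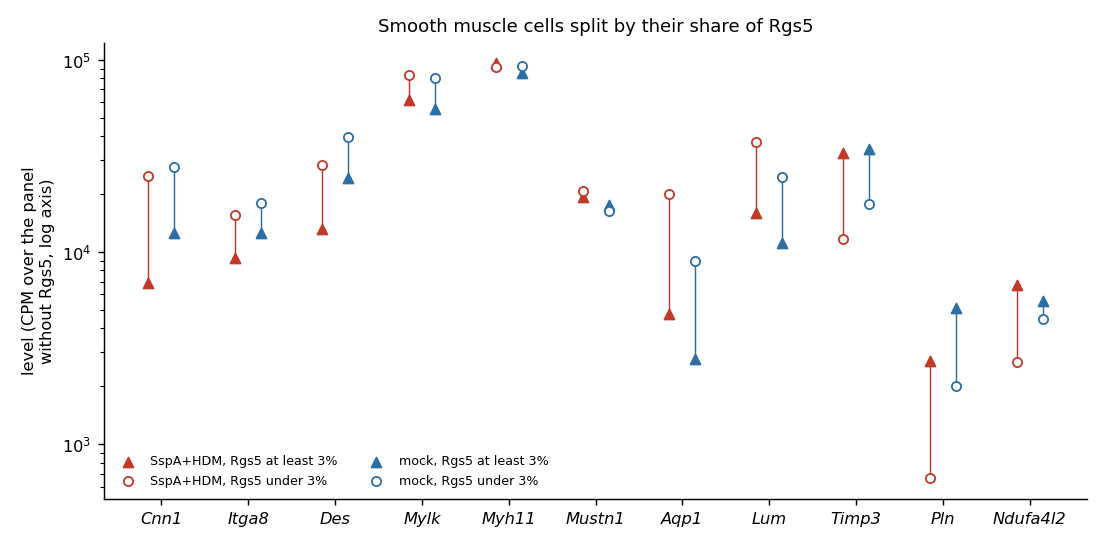
Levels in smooth muscle cells with at least 3% Rgs5 transcripts (triangles; 93 cells in SspA+HDM skin, 27 in mock skin) and with under 3% (open circles; 389 and 334), in CPM over the panel without Rgs5, on a log axis. Cnn1 (a gene of the rule), Itga8, Des, Aqp1 and Lum are lower and Timp3 and Pln higher in the Rgs5-rich cells of both sections.

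Across the 115 genes with enough transcripts, most levels in smooth muscle cells were close between the sections. Between 1.5-fold lower and 1.5-fold higher lay 65 genes. At least 2-fold higher in SspA+HDM skin were 16 (13.9%) and at least 2-fold lower 12 (10.4%). In the other cells within 30 µm the same genes gave 25 (21.7%) higher and 13 (11.3%) lower. Of the 16 genes, 13 were also at least 2-fold higher in the surrounding cells, and of the 12, 7 were also at least 2-fold lower. The counting interval lay wholly past 2-fold for 6 of the higher and 5 of the lower genes. For 16 of 16 higher and 11 of 12 lower genes both strips of 1 section lay above both strips of the other, which held for 78 (67.8%) of the 115 genes. Without SspA+HDM strip 2 there were 8 higher genes, and without mock strip 1 there were 6 lower genes. Without the 19-cell group of SspA+HDM strip 2 the counts were 12 higher and 10 lower.

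**Figure D5:**
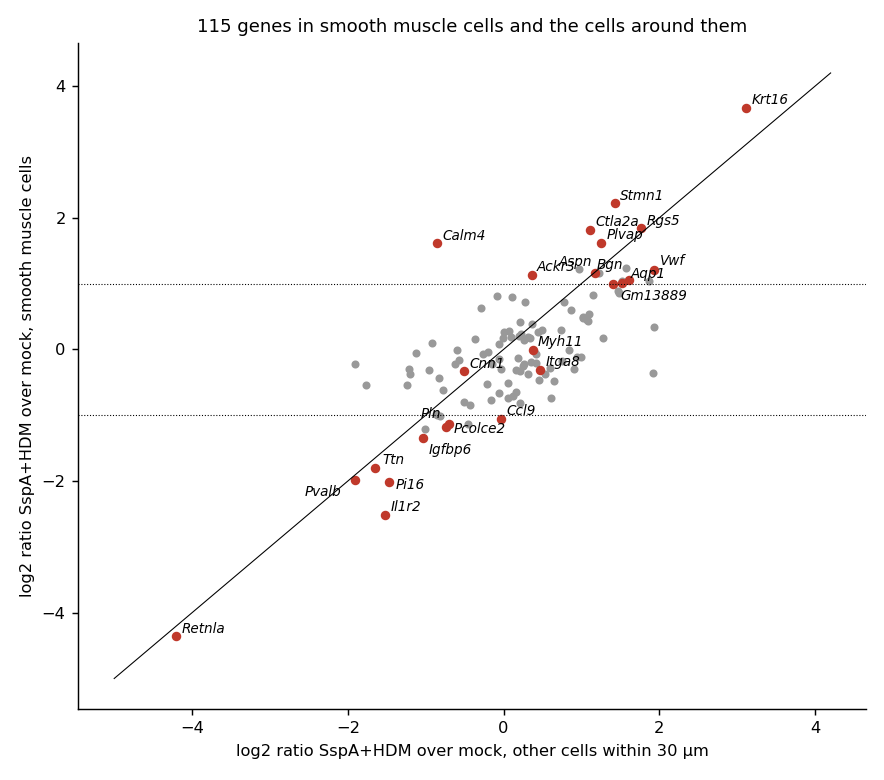
Log2 ratio of SspA+HDM over mock in smooth muscle cells (vertical axis) against the same ratio in the other cells within 30 µm (horizontal axis), for the 115 genes with at least 50 transcripts in the smooth muscle cells of 1 section; red points are named, the dotted lines mark 2-fold and the diagonal marks equal ratios. Myh11 and Cnn1, which chose the cells, lie near 0, Bgn and Rgs5 are higher in both kinds of cells, and Calm4 is higher in smooth muscle cells and lower around them.

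Matrix genes that were higher in SspA+HDM skin were higher around the smooth muscle cells as well. Of the 10 matrix genes on the panel, 9 had enough transcripts, 2 were at least 2-fold higher and 2 lower, beside 13.9% and 10.4% over all genes compared. Their median log2 ratio was 0.24, beside -0.07 over all genes. Bgn, a small proteoglycan that binds collagen, had 54662 and 54421 CPM in the strips of SspA+HDM skin and 26892 and 25451 in those of mock skin, a ratio of 2.08 (1.92 to 2.26). The surrounding cells had 45917 in SspA+HDM skin and 14967 in mock skin, a ratio of 3.07. Without the 19-cell group of SspA+HDM strip 2, Bgn stood at 50178 in the smooth muscle cells of SspA+HDM skin. That level was still above both mock strips, but by less than 2-fold. Aspn, asporin, of the same proteoglycan family, had 16810 and 15250 in the strips of SspA+HDM skin and 7616 and 6623 in those of mock skin, a ratio of 2.24 (1.92 to 2.63). It had 13692 in the surrounding cells of SspA+HDM skin and 6059 in those of mock skin. Lum, the proteoglycan lumican, had 32725 in SspA+HDM skin and 23380 in mock skin, a ratio of 1.40 (1.28 to 1.54). Counting only transcripts over the nucleus, the log2 ratio was 0.52 for Aspn and 0.84 for Bgn.

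The matrix genes lower in SspA+HDM skin were Igfbp6, which binds insulin-like growth factor 2, and Pcolce2, an enhancer of procollagen processing, both also fibroblast markers. Igfbp6 had 2004 and 2691 CPM in the strips of SspA+HDM skin and 5459 and 6623 in those of mock skin, 2.53-fold lower. Pcolce2 had 4509 and 4357 in SspA+HDM skin and 10379 and 9739 in mock skin, 2.27-fold lower. Pi16, a protease inhibitor that marks a fibroblast population around vessels and in deep connective tissue, had 4564 and 4272 in SspA+HDM skin and 18737 and 16881 in mock skin, 4.04-fold lower (3.41 to 4.81). It had 4926 in the surrounding cells of SspA+HDM skin and 13692 in those of mock skin. Of the 6 fibroblast markers, 3 were at least 2-fold lower and 0 at least 2-fold higher, beside 10.4% and 13.9% over all genes compared. Lum, also among the 6, was higher in SspA+HDM skin, as given above. The 6 markers together had 60350 in the smooth muscle cells of SspA+HDM skin and 69877 in those of mock skin. In the surrounding cells they ran the other way, with 65231 in SspA+HDM skin and 56698 in mock skin. All 6 markers were detected in both sections. Their part in these ratios was not tested.

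The vascular receptor genes Calcrl and Ackr3 passed 2-fold upward in SspA+HDM skin. They are 2 of the 3 vascular signalling genes on the panel, beside 13.9% higher over all genes compared, and the third, Itga8, had a ratio of 0.805. The 3 genes together had 19819 CPM in SspA+HDM skin and 20007 in mock skin. Neither Calcrl nor Ackr3 was among the 14 genes at least 2-fold above the surrounding cells in both sections. Calcrl, the receptor subunit for adrenomedullin and calcitonin gene-related peptide, had 3117 and 4528 CPM in the strips of SspA+HDM skin and 1887 and 1493 in those of mock skin, a ratio of 2.32 (1.69 to 3.25). Ackr3, a scavenger receptor for the chemokine CXCL12, had 1225 and 2264 in SspA+HDM skin and 809 and 844 in mock skin, a ratio of 2.19 (1.38 to 3.60), against 1.29 in the surrounding cells. Without the 19-cell group of SspA+HDM strip 2 the log2 ratios were 0.80 for Calcrl and 0.87 for Ackr3, both under 2-fold.

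Of the 8 blood endothelial markers on the panel, 5 had enough transcripts and 2, Vwf and Plvap, were at least 2-fold higher, beside 13.9% over all genes compared. Vwf had 5065 and 10124 CPM in the strips of SspA+HDM skin and 3505 and 3376 in those of mock skin, a ratio of 2.30 (1.84 to 2.90). Its log2 ratio was 1.20, 0.33 without the 19-cell group, 0.56 without SspA+HDM strip 2 and 0.21 over the nucleus only. Plvap, a protein of endothelial pores and vesicles, had 3117 and 5340 in SspA+HDM skin and 1011 and 1818 in mock skin, a ratio of 3.08 (2.20 to 4.40), with a log2 ratio of 1.06 without the group. Gng11, a G protein subunit, and Ctla2a, a cathepsin inhibitor, had ratios of 2.36 and 3.53. Over the nucleus only, the log2 ratios were 0.41 for Calcrl, 0.56 for Gng11 and 0.31 for Ctla2a, all under 2-fold. The 8 blood endothelial markers together had 28399 in the smooth muscle cells of SspA+HDM skin and 17196 in those of mock skin, with 0 undetected in SspA+HDM skin and 1 in mock skin. By strip the sums were 21319 and 33832 in SspA+HDM skin and 14895 and 19413 in mock skin. In the surrounding cells the 8 markers together had 22346 CPM in SspA+HDM skin and 9492 in mock skin. Their part in the ratios of these genes was not tested.

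Keratinocyte genes were found below their level in the surrounding cells. Krt16, a keratin of thickened and wounded epidermis, had the highest ratio, 12.7 (7.13 to 25.03), with 209 transcripts in SspA+HDM skin and 12 in mock skin. It had 5051 CPM in SspA+HDM skin and 397 in mock skin, below the 8570 and 992 of the surrounding cells in those sections. Calm4, a calmodulin-like protein of the epidermis, went against its surroundings, with 2728 and 6109 in the strips of SspA+HDM skin and 2157 and 909 in those of mock skin. Its ratio was 3.05 (2.20 to 4.31) in the smooth muscle cells and 0.553 in the surrounding cells, which had 9051 in SspA+HDM skin and 16369 in mock skin. Its log2 ratio was 0.84 without SspA+HDM strip 2, under 2-fold. Thinned to 20 transcripts, 9.54% of the smooth muscle cells of SspA+HDM skin and 2.22% of those of mock skin had a Calm4 transcript. Crct1, a protein of cornified epidermis, had 773 in SspA+HDM skin and 1786 in mock skin, and its log2 ratio of -1.21 became 0.061 without mock strip 2. The 4 epithelial markers that limit the rule had 7057 in the smooth muscle cells of SspA+HDM skin and 8433 in those of mock skin, against 73444 and 86030 around them.

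Stmn1, stathmin, which destabilizes microtubules and is high in dividing cells, was the 1 division gene with enough transcripts. It had 5177 and 5553 CPM in the strips of SspA+HDM skin and 1618 and 714 in those of mock skin, a ratio of 4.66 (3.25 to 6.86), which over the nucleus only was 1.96. The surrounding cells had more of it, 16456 in SspA+HDM skin and 6116 in mock skin. Cenpf, a centromere protein of late cell cycle, had 43 transcripts in SspA+HDM skin and 5 in mock skin, and Ube2c, a ubiquitin-conjugating enzyme of mitosis, had 14 and 2.

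Injury and inflammation genes were sparse in smooth muscle cells. Of the 6 on the panel, 3 had enough transcripts, 0 were at least 2-fold higher and 1 was lower, beside 13.9% and 10.4% over all genes compared. Retnla, a secreted protein of alternatively activated macrophages and adipose tissue, had 5 transcripts in SspA+HDM skin and 75 in mock skin, 20.5-fold lower (8.42 to 65.04), with 4044 and 974 CPM in the mock strips. The surrounding cells had 146 in SspA+HDM skin and 2685 in mock skin. C3, the central complement protein, had 3069 in SspA+HDM skin and 5357 in mock skin, a ratio of 0.573 (0.451 to 0.727). Psmb8, a subunit of the immunoproteasome, had 2151 in SspA+HDM skin and 2613 in mock skin. Ccl12, a monocyte chemokine, had 12 transcripts in SspA+HDM skin and 7 in mock skin, and Rsad2, an interferon-induced antiviral enzyme, had 18 and 9. Areg, a ligand of the epidermal growth factor receptor, had 0 and 2. Il1r2, the decoy receptor for interleukin 1, was 5.71-fold lower, with 846 in SspA+HDM skin and 4828 in mock skin, and with 1519 and 4348 around the cells.

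Of the 4 skeletal muscle markers, 3 had enough transcripts and 2, Ttn and Pvalb, passed 2-fold downward in SspA+HDM skin, beside 10.4% over all genes compared. The third, Pygm, the muscle glycogen phosphorylase, had 2659 CPM in SspA+HDM skin and 3869 in mock skin, a ratio of 0.687. Ttn, titin of the striated sarcomere, had 2344 CPM in SspA+HDM skin and 8168 in mock skin, 3.48-fold lower (2.74 to 4.45). The surrounding cells had 4662 in SspA+HDM skin and 14664 in mock skin. Pvalb, a calcium buffer of fast muscle fibres, was 3.95-fold lower, with a log2 ratio of -0.37 over the nucleus only. The 4 skeletal muscle markers together, which the rule limits, had 6236 in the smooth muscle cells of SspA+HDM skin and 16766 in those of mock skin, with all 4 detected in both sections, and 10893 and 36172 around them. Their part in the ratio of Des, which striated muscle also holds, was not tested. Nupr1, a stress-induced nuclear protein, was 2.20-fold lower, with 4012 in SspA+HDM skin and 8830 in mock skin. Of the markers of immune cells, the 5 macrophage genes had 6719 in the smooth muscle cells of SspA+HDM skin and 7573 in those of mock skin, with 1 undetected in SspA+HDM skin, and the 4 T cell genes had 1885 and 1323.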

How the data were processed

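The deposited tables, 1 pair per section, list each decoded transcript with its gene, position, outline and quality score (per the file headers), and the corners of each outline. No source used here names the software or its settings, and positions were taken as µm. Gene transcripts with a score of at least 20 were counted per outline, which kept 78.1% in SspA+HDM and 79.4% in mock, and control features were left out. Transcripts of the smooth muscle cells were summed per gene and section and divided by their sum over the panel, so a ratio moves with the other panel genes. Genes with at least 50 transcripts in 1 section were compared and called at 2-fold. No test was possible over 1 sample per treatment. Intervals are exact Poisson for sums, exact Clopper-Pearson for shares and exact conditional binomial for ratios, at 95%, and cover counting error alone. No doublet caller was run. The cells, gene lists and rule for named genes were chosen with earlier results of these data known. Named were the 10 highest and 10 lowest ratios, the list members on the panel (for matrix only extremes) and the genes that followed position. The list of transcription factors had 0 genes on the panel. Strips are pieces linked within 100 µm that hold at least 5% of the cells. Distances are between outline centres. Alternatives changed quality, depth, marker share, strips, nuclear counting, gene minimum, scaling and weights. The interval code was tested on simulated data. Promoters came from RefSeq for 280 panel genes; those of Myh11 and Tagln are not used here. Python 3.11.15, numpy 2.4.6, scipy 1.17.1, pandas 2.3.3 and matplotlib 3.10.9 were used.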

Additional observations from a re-analysis of the deposited data

How the results depend on the processing

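No paired analysis was possible because each treatment had 1 sample. The ratio of smooth muscle cell shares, SspA+HDM over mock, stayed under 1 under every alternative run; it was 0.557 with a marker share of at least 5% and 0.627 with transcripts over the nucleus only, against 0.462. The count of genes at least 2-fold higher was 9 of 69 tested with a marker share of at least 15%, 8 of 95 without SspA+HDM strip 2, 5 of 45 over the nucleus only and 29 of 160 with a minimum of 20 transcripts per gene, against 16 of 115. The count at least 2-fold lower was 6 of 109 without mock strip 1, 2 of 45 over the nucleus, 19 of 160 with a minimum of 20 transcripts, and 5 of 58 among genes at least as high as in the surrounding cells, against 12 of 115. Each of these alternatives for the counts of genes also changed how many genes were tested, and the cause of the changed counts was not tested. Within 30 µm instead of 20 µm of endothelium lay 70.1% of smooth muscle cells in SspA+HDM skin and 40.2% in mock skin, and with endothelial markers of at least 15% of a cell, 33.4% and 11.9%. The other 64 values of these results stayed within the counting interval of the value reported or, for counts, within 1.5 times of it. Among them, a section's share near endothelium could not move when only cells of the other section were left out. Of 489 values of genes past 2-fold, over 19 alternatives, 488 kept their direction and 441 stayed past 2-fold. The gene minimums and the limit to genes at least as high as in the surrounding cells cannot move a gene's ratio. Their values are part of these counts, which therefore overstate how stable the ratios are. Crct1 turned to a log2 ratio of 0.061 without mock strip 2. Rgs5 ran between 1.21 and 1.99 on the log2 scale and Krt16 between 2.24 and 4.11. Alternatives without the 19-cell group of SspA+HDM strip 2, without the 13-cell chain of mock strip 1, without the Rgs5-rich cells and with equal weight near and far were chosen after seeing the data.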
